A study of Mus musculus with 6 samples.

Results

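Malt1 encodes the paracaspase that works at the core of a signalling chain used by the C-type lectin receptors of macrophages, and the genes considered here are Malt1 and 9 genes for proteins that act beside it in that chain. The 10 symbols, Syk, Card9, Bcl10, Malt1, Fcer1g, Plcg2, Prkcd, Vav1, Traf6 and Map3k7, were matched to Ensembl identifiers, and all 10 were found among the 55421 genes of the count table and among the 14469 genes tested. They were examined in tumor-associated macrophages (TAMs), sorted as CD11b+F4/80+ cells from implanted tumors that the labels call M17 and the methods MC17-51, a fibrosarcoma, and collected on day 15 after implantation from mice that were 8 to 12 weeks old when they entered the experiments. For TAM sorts of the same kind in other mice of the study, the methods give a gate of live CD45+ cells that also excludes Ly6G+ cells, which would remove neutrophils, tumor cells and endothelial cells. The Pdcd1f/f group (3 libraries) carries floxed alleles of Pdcd1, the gene for the inhibitory receptor PD-1. The Pdcd1f/fLysMcre group (3 libraries) carries the same floxed alleles and Cre recombinase under the lysozyme (LysM) promoter, which is active in monocytes, macrophages and granulocytes. Both groups therefore share the floxed Pdcd1 locus and the tumor, and they differ in Cre, so effects of Cre, of its insertion in the lysozyme gene Lyz2 and of the loss of Pdcd1 cannot be told apart. The question asked was whether a higher level of Malt1 in Pdcd1f/fLysMcre TAMs is shared by its signalling partners. Malt1 was singled out with its rise in these libraries known, so its own change is given as a description of that starting point.

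C-type lectin receptors such as Dectin-1, Dectin-2 and Mincle, and activating Fc receptors, pass signals through an immunoreceptor tyrosine-based activation motif (ITAM), which lies in the receptor itself or in the adaptor Fcer1g. The phosphorylated motif recruits the kinase Syk, and Syk engages Vav1 and the phospholipase Plcg2, which raises diacylglycerol and calcium and activates the protein kinase C family member Prkcd. Prkcd phosphorylates Card9, and Card9 then nucleates filaments of the adaptor Bcl10 bound to Malt1. Malt1 recruits the ubiquitin ligase Traf6, which leads to the kinase Map3k7 (TAK1) and to NF-κB, and Malt1 also cuts a small number of regulators of inflammation as a protease. In macrophages the chain is best known for responses to fungi and for the induction of inflammatory cytokines.

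The transcripts of the 10 genes differ widely in base composition, and the libraries differed in how strongly they represented transcripts rich or poor in G and C. As examples of base composition, the opening 120 bases of the longest coding exon are given for 3 of the genes. Malt1 is not among them, and a window need not have the GC content of its whole transcript. They are written 5′ to 3′ on the strand of the gene with G and C in capitals. The windows come from the longest protein-coding transcript of each gene in the GENCODE mouse annotation of GRCm38, and all lie in coding sequence. Card9 stands for the GC-rich end, with 67 G or C bases in this window of exon 3 (chr2:26357896-26358015, minus strand). The window of Traf6 holds 62 (exon 8, chr2:101696663-101696782, plus strand), and that of Map3k7 holds 46 (exon 17, chr4:32019501-32019620, plus strand).
Card9: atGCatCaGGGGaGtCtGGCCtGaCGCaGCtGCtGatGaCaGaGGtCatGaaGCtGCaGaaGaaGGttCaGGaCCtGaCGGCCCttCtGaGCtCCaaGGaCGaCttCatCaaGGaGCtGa
Traf6: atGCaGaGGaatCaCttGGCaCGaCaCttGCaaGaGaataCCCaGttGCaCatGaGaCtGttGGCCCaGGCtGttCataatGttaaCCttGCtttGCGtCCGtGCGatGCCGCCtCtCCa
Map3k7: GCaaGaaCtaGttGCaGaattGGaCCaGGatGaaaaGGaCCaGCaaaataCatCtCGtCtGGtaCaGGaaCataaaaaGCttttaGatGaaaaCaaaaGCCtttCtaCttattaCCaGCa
The whole longest transcripts had a GC content of 56.9% for Card9, 45.7% for Traf6 and 45.2% for Map3k7. Malt1 was far lower, at 35.8%, with only 0.65% of the tested genes at or below it and a median of 49.2% over tested genes. The other partners lay between 50.8% (Bcl10) and 54.5% (Plcg2).

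Throughout, normalized counts are read counts divided by 1 size factor per library, the threshold is an adjusted p of 0.05 in edgeR over all 14469 genes tested, and fold changes are Pdcd1f/fLysMcre over Pdcd1f/f. The libraries held between 41833823 and 51417209 counts, so 3 counts corresponded to at most 0.0717 CPM, which covers counting error only. For Pdcd1 itself the Pdcd1f/f libraries held 10, 12 and 15 reads and the Pdcd1f/fLysMcre libraries 7, 16 and 11, too few to check the deletion. Lyz2 had 207974 to 225226 normalized counts per library in Pdcd1f/f TAMs and only 405 to 465 with LysMcre (log2 fold change −8.99, adjusted p = 2.43e-12 from edgeR), which separates the libraries by Cre as labelled. Pdcd1f/f replicate 1 and Pdcd1f/fLysMcre replicate 2 stood apart from the others of their group in GC content: Spearman's rho across genes between a gene's deviation from its group mean and its GC content was −0.58 and −0.49 in these libraries, and between 0.12 and 0.51 in the other 4. Macrophage markers were abundant but lower in Pdcd1f/fLysMcre TAMs, with 3 of 6 past the threshold, against 5.43% of all genes tested. Their summed normalized counts were 184231 to 201172 in Pdcd1f/f TAMs against 161127 to 164837 with LysMcre. Fewer macrophages and less of these RNAs per macrophage cannot be told apart in bulk samples. The neutrophil markers summed to 4219 to 4526 and to 3813 to 3940 normalized counts, with Ly6g at no more than 3 counts in any library, while Cd8a, a defining marker of cytotoxic T cells, had no more than 2. Xist ranged between 17318 and 26511 normalized counts in the controls and between 8529.5 and 13136.5 with LysMcre, and 4 Y-linked genes summed to 1545 to 1914 and to 6267 to 7233, so the mix of sexes differed between the groups and cannot be told apart from genotype. The part of these differences in the results was not tested.

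Malt1 had 15613, 13374 and 12654 normalized counts across Pdcd1f/f replicates 1 to 3, against 19794.5, 19397 and 18223 with LysMcre. The Malt1 values of the groups did not overlap, and the highest Pdcd1f/f library was replicate 1, the library that favoured transcripts poor in GC. The means were 13880 ± 1543 and 19138 ± 817 (SD, n = 3 each), a fold change of 1.38 (95% interval 1.22 to 1.56), or 0.47 on the log2 scale with a standard error of 0.08 (adjusted p = 0.00919 from edgeR). With offsets that remove the trend of each library with GC content and transcript length, the log2 fold change of Malt1 was 0.30 (95% interval 0.21 to 0.40, adjusted p = 0.000212 from edgeR), smaller by more than 1.5 times and still past the threshold. Leaving out Pdcd1f/f replicate 2 (0.44, adjusted p = 0.0630 from edgeR) or Pdcd1f/fLysMcre replicate 1 (0.44, adjusted p = 0.0706 from edgeR) ended the call, while without both libraries that stood apart in GC content the log2 fold change was 0.54 (adjusted p = 1.15e-06 from edgeR).

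**Figure D1:**
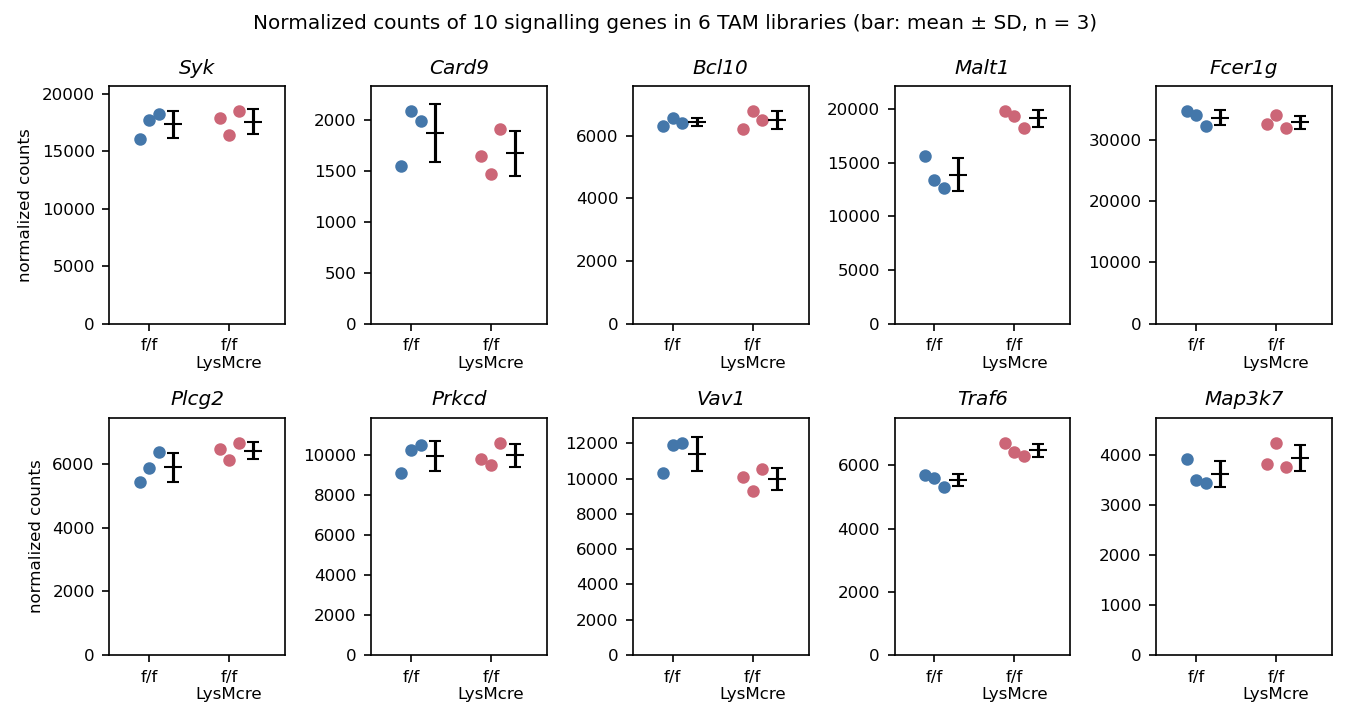
Normalized counts of the 10 genes (y axis, from 0, one scale per gene) in the 3 Pdcd1f/f libraries (blue) and the 3 Pdcd1f/fLysMcre libraries (red), with replicates 1 to 3 from left to right and the mean ± SD at the side. Only Malt1 and Traf6 have groups that do not overlap, and Card9, Plcg2, Prkcd and Vav1 show a low Pdcd1f/f replicate 1.

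Neither of the genes whose proteins form the complex with Malt1, Card9 and Bcl10, was past the threshold, and both estimates lay well below that of Malt1. Bcl10, the adaptor that binds Malt1 (chr3:145922804-145934356, plus strand, GRCm38 as for all positions), had 6324, 6581 and 6398 normalized counts across Pdcd1f/f replicates 1 to 3, against 6209, 6782 and 6499 with LysMcre. The 2 ranges were nested, with means of 6434 ± 132 and 6497 ± 286 (SD, n = 3 each). The log2 fold change of Bcl10 was 0.016 (95% interval −0.12 to 0.15, adjusted p = 0.898 from edgeR), so the upper end of the interval lies well under the estimate for Malt1. Card9, the scaffold that starts Bcl10 filaments in myeloid cells (chr2:26352176-26360918, minus strand), was the least abundant of the 10 by normalized counts, with 1549, 2080 and 1988 across Pdcd1f/f replicates 1 to 3, against 1639, 1469 and 1906 with LysMcre. Its lowest libraries were the 2 that stood apart in GC content, one in each group. The log2 fold change of Card9 was −0.16 (95% interval −0.44 to 0.11, adjusted p = 0.455 from edgeR), and with GC and length offsets it was −0.02 (95% interval −0.15 to 0.12, adjusted p = 0.889 from edgeR). Card9 had the widest interval of the 10 genes without the offsets.

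Among the genes that act before Card9, none was past the threshold. Fcer1g, the ITAM adaptor shared by Mincle, Dectin-2 and Fc receptors (chr1:171229572-171234365, minus strand), had 34659, 34090 and 32249 normalized counts across Pdcd1f/f replicates 1 to 3, against 32680, 34071.5 and 31951 with LysMcre. These libraries overlapped and gave a log2 fold change of −0.03 (95% interval −0.17 to 0.10, adjusted p = 0.793 from edgeR). Syk, the kinase that docks on the phosphorylated motif (chr13:52583173-52648792, plus strand), had 16044, 17756 and 18247 normalized counts across Pdcd1f/f replicates 1 to 3, against 17909, 16384 and 18471 with LysMcre. In each group the lowest value of Syk came from the library that stood apart in GC content, and the log2 fold change was 0.02 (95% interval −0.14 to 0.18, adjusted p = 0.882 from edgeR).

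Plcg2, the phospholipase below Syk (chr8:117498291-117635142, plus strand), had 5424, 5881 and 6360 normalized counts across Pdcd1f/f replicates 1 to 3, against 6471, 6119 and 6657 with LysMcre. The groups overlapped through Pdcd1f/f replicate 3 and Pdcd1f/fLysMcre replicate 2. For Plcg2 the log2 fold change was 0.13 (95% interval −0.03 to 0.29, adjusted p = 0.316 from edgeR), and with GC and length offsets it was 0.21 (95% interval 0.13 to 0.29, adjusted p = 0.00103 from edgeR), past the threshold. No fit that left out a single library called Plcg2.

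Prkcd, the kinase that activates Card9 (chr14:30595354-30626210, minus strand), had 9106, 10249 and 10482.5 normalized counts across Pdcd1f/f replicates 1 to 3, against 9819, 9521 and 10602 with LysMcre. Its values overlapped, with a log2 fold change of 0.0072 (95% interval −0.16 to 0.17, adjusted p = 0.962 from edgeR). Vav1, the exchange factor that Syk engages (chr17:57279100-57328031, plus strand), was the partner with the lowest estimate, with 10308, 11929 and 12020.3 normalized counts across Pdcd1f/f replicates 1 to 3, against 10097, 9323 and 10533 with LysMcre. The overlap came from Pdcd1f/f replicate 1 alone, which lay under Pdcd1f/fLysMcre replicate 3. For Vav1 the log2 fold change was −0.19 (95% interval −0.36 to −0.02, adjusted p = 0.165 from edgeR). It was past the threshold without Pdcd1f/f replicate 1 (−0.27, adjusted p = 0.0150 from edgeR) and without both libraries that stood apart (−0.22, adjusted p = 0.00276 from edgeR), and not with GC and length offsets (−0.11, adjusted p = 0.0551 from edgeR).

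Of the genes that act after Malt1, Traf6 came nearest to its pattern. Traf6, the ubiquitin ligase that binds Malt1 (chr2:101678429-101701669, plus strand), had 5708, 5593 and 5331 normalized counts across Pdcd1f/f replicates 1 to 3, against 6712, 6419 and 6310.4 with LysMcre. All 3 Pdcd1f/fLysMcre libraries lay above the Pdcd1f/f libraries, with means of 6480.4 ± 208 and 5544 ± 193 (SD, n = 3 each). The log2 fold change of Traf6 was 0.23 (95% interval 0.09 to 0.36), just short of the threshold (adjusted p = 0.0582 from edgeR). It was past the threshold with DESeq2 (adjusted p = 0.0148), with GC and length offsets (log2 fold change 0.16, adjusted p = 0.0111 from edgeR), without Pdcd1f/f replicate 1 (0.24, adjusted p = 0.0196 from edgeR) and without both libraries that stood apart (0.25, adjusted p = 0.00227 from edgeR). Without any other single library the adjusted p of Traf6 was at least 0.0959 from edgeR.

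Map3k7, the kinase below Traf6 (chr4:31964097-32023467, plus strand), had 3911, 3502 and 3436 normalized counts across Pdcd1f/f replicates 1 to 3, against 3814, 4232 and 3744 with LysMcre. Its highest libraries were the 2 that stood apart in GC content. Card9 was lowest in those 2 libraries, and Vav1 was lowest in them only within each group. The transcripts of Card9 and Vav1 are richer in GC. The log2 fold change of Map3k7 was 0.12 (95% interval −0.05 to 0.29, adjusted p = 0.351 from edgeR), and with GC and length offsets it was 0.05 (adjusted p = 0.522 from edgeR).

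In all, 1 of the 10 genes, Malt1, was past the threshold, against 5.43% of all genes tested and 2.42% for higher in Pdcd1f/fLysMcre. Malt1 and Traf6 were the only members of the 10 whose groups did not overlap, both higher, against 14.7% of tested genes that were higher without overlap and 27.5% without overlap in either direction. The median log2 fold change of the 10 genes was 0.02, beside −0.0026 over all genes tested, with 7 genes above and 3 below 0. With GC and length offsets 3 of the 10 genes were called (Malt1, Plcg2 and Traf6, all higher), against 18.2% of tested genes in either direction, 9.52% higher and 8.64% lower. Without both libraries that stood apart it was also 3, with Malt1 and Traf6 higher and Vav1 lower, against 26.2% of all genes tested in that fit. Leaving out Pdcd1f/f replicate 1 gave 3 called genes as well, against 21.6% of all genes tested. Leaving out Pdcd1f/f replicate 2 or Pdcd1f/fLysMcre replicate 1 gave 0, against 1.51% of all genes tested in each of these fits. In each of them 2 of the 10 genes had an unadjusted p under 0.05 in edgeR, for which no share of all genes is given. Malt1 was past the threshold in 16 of 18 alternative analyses and Traf6 in 6, Plcg2 in 3, Vav1 in 2 and Syk in 1, and Card9, Bcl10, Fcer1g, Prkcd and Map3k7 were called in none of the 18.

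**Figure D2:**
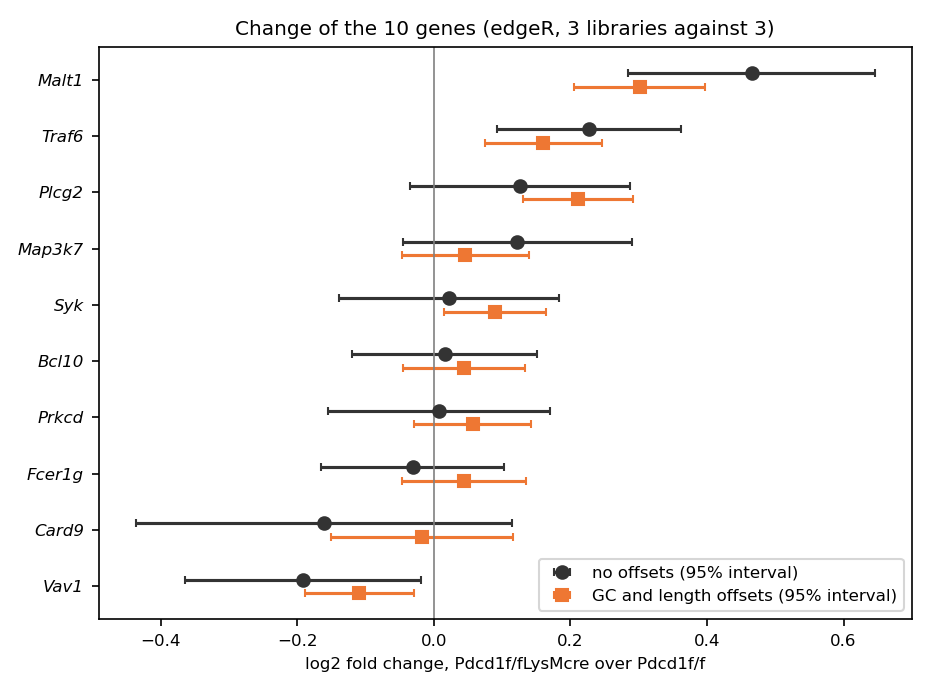
Log2 fold change (x axis, Pdcd1f/fLysMcre over Pdcd1f/f) of each of the 10 genes in edgeR without offsets (black circles) and with GC and length offsets (orange squares), with 95% intervals. The interval of Malt1 runs from 0.28 to 0.65 without offsets and from 0.21 to 0.40 with them, and the offsets move Malt1, Traf6 and Map3k7 down and the 7 other genes up.

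The order of the genes in the plot of changes followed their base composition in part. Over all tested genes with a GC value, Spearman's rho between the log2 fold change and GC content was −0.36, a description across genes, which are not independent. Tested genes with a GC content within 1 percentage point of Malt1 (129 genes) had a median log2 fold change of 0.17, against 0.47 for Malt1 itself, and 10 of the 129 were called higher and 1 lower. For Traf6 the median of 1521 such genes was 0.07, against its own 0.23, and for Map3k7 the median of 1481 genes was 0.08, against 0.12. For Vav1 the median of 1477 genes was −0.09, against its own −0.19, and for Plcg2 the median of 1426 genes was −0.10, while Plcg2 itself stood at 0.13. Card9, at −0.16, lay close to the median of its 1089 neighbours, −0.14.

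For several of the 10 genes the same trend was visible within the groups. In Pdcd1f/f replicate 1, Malt1 lay 0.17 above its group mean and Map3k7 0.11 above on the log2 scale, while Card9 lay at −0.26, Vav1 at −0.15, Prkcd at −0.13, Plcg2 at −0.12 and Syk at −0.11. The fitted GC and length trend for that library was 0.12 for Malt1 and −0.09 for Card9. This trend was fitted to deviations from the mean of all 6 libraries, not of the group. Its sizes can therefore not be set against the deviations from the group mean. In Pdcd1f/fLysMcre replicate 2 the trend was 0.21 for Malt1 and −0.18 for Card9. In that library Card9 lay at −0.18 from its group mean and Malt1 at 0.02. Fcer1g (0.05, trend −0.06), Bcl10 (0.06, trend −0.02) and Traf6 (−0.01, trend 0.06) had the opposite sign to the trend in that library. The trend, averaged over each group, differed between Pdcd1f/fLysMcre and Pdcd1f/f by 0.17 for Malt1 and by −0.14 for Card9. The offsets were fitted without regard to group, so a true difference between the genotypes that follows GC content would be removed with them.

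**Figure D3:**
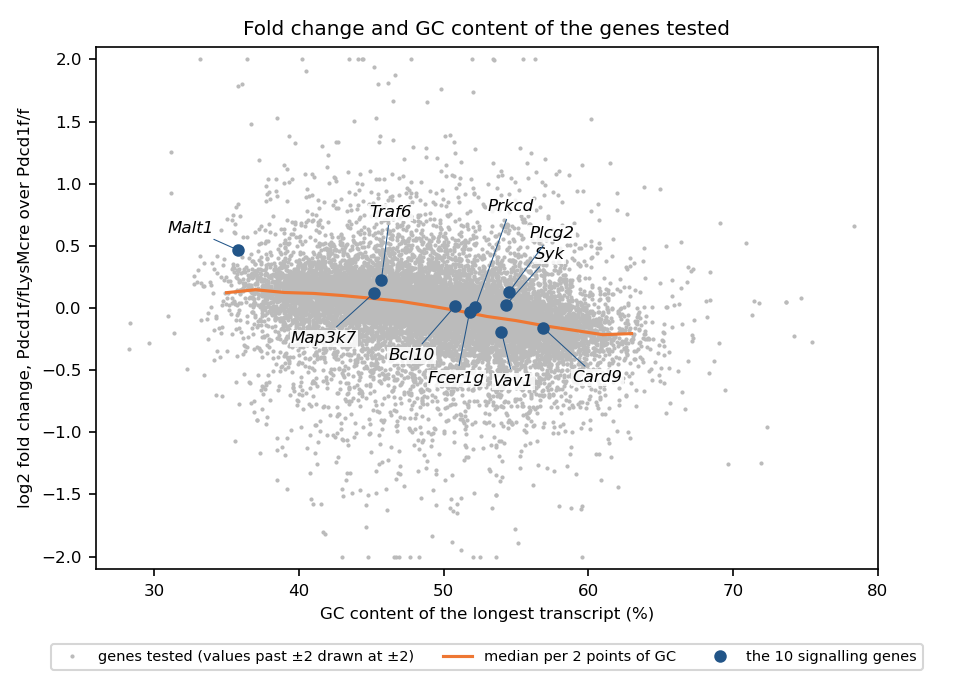
Log2 fold change (y axis, Pdcd1f/fLysMcre over Pdcd1f/f, values past ±2 drawn at ±2) against GC content of the longest transcript in percent (x axis) for the tested genes (grey), with the median for each 2 points of GC (orange line) and the 10 genes named (blue). Malt1, at 35.8% GC and 0.47, sits above the line at its low-GC end, and Card9 at 56.9% sits near it.

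Whether a partner changed less than Malt1 was tested on the log2 ratio of the partner to Malt1 in the same library, with limma over all other genes tested. The log2 ratio of Bcl10 to Malt1 was −1.30, −1.02 and −0.98 across the Pdcd1f/f replicates, and lower, at −1.67, −1.52 and −1.49, across the Pdcd1f/fLysMcre replicates. The difference for Bcl10 was −0.46 (95% interval −0.70 to −0.21, adjusted p = 0.00542 from limma). The largest difference was that of Vav1, at −0.66 (95% interval −0.96 to −0.37, adjusted p = 0.00318 from limma), followed by Card9 at −0.63 (95% interval −1.02 to −0.24, adjusted p = 0.00994 from limma) and Fcer1g at −0.50 (95% interval −0.71 to −0.29, adjusted p = 0.00266 from limma). Traf6 differed least, at −0.24 (95% interval −0.45 to −0.03, adjusted p = 0.0413 from limma), and its call was kept only without Pdcd1f/f replicate 1 when a single library was left out (adjusted p of 0.0988 to 0.179 from limma in the other 5 fits). That of Plcg2 was kept in 2 of the 6 fits, without replicate 1 of Pdcd1f/f or replicate 3 of Pdcd1f/fLysMcre. All 9 partners lay below Malt1 by this test, but so did 67.8% of all other genes tested (68.2% in either direction), and Malt1 was chosen as a gene with a clear rise, whose values all 9 comparisons share. Of the 9 ratios, 7, those of all but Card9 and Plcg2, did not overlap between the groups (p = 0.1 in an exact, two-sided permutation of the libraries, which is the floor for 3 against 3), against 68.7% of all genes tested with a lower ratio and no overlap.

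With GC and length offsets the differences from Malt1 shrank, and 7 of the 9 partners were past the threshold, against 58.4% of all other genes below Malt1 and 59.3% in either direction. Plcg2 then differed from Malt1 by −0.09 (95% interval −0.24 to 0.07, adjusted p = 0.326 from limma) and Traf6 by −0.14 (95% interval −0.29 to 0.01, adjusted p = 0.109 from limma). With these offsets neither could be told apart from Malt1. The change of Malt1 itself with the offsets was 0.30, and the interval of Traf6 also allows a difference of nearly that size. Vav1 (−0.41, adjusted p = 6.43e-06 from limma), Card9 (−0.32, adjusted p = 0.00100 from limma) and Bcl10 (−0.26, adjusted p = 0.00384 from limma) stayed past the threshold. Without Pdcd1f/fLysMcre replicate 1 only 3 partners (Bcl10, Fcer1g and Vav1) were past the threshold, and without Pdcd1f/fLysMcre replicate 2 it was 4, Map3k7 being the other. Bcl10, Fcer1g and Vav1 were past it in all 12 alternatives run for this test.

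**Figure D4:**
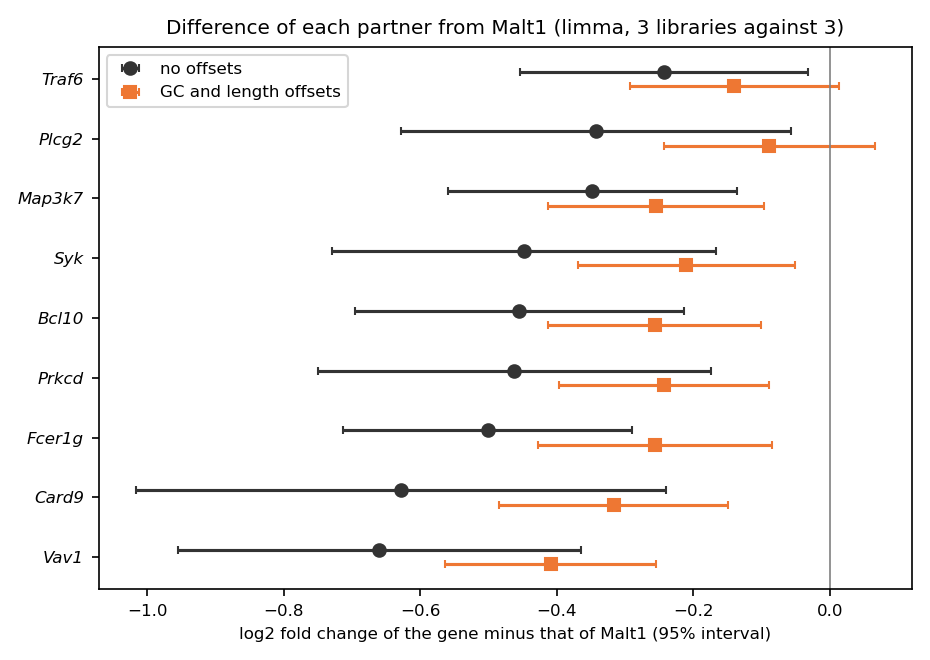
Log2 fold change of each of the 9 partners minus that of Malt1 (x axis, 95% interval from limma) without offsets (black circles) and with GC and length offsets (orange squares). All estimates lie below 0, and with the offsets the intervals of Traf6 and Plcg2 reach past 0.

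The levels of the genes were compared per length, as reads per kilobase of merged exons scaled to library size (RPKM). In Pdcd1f/f TAMs the level of Fcer1g was 816 ± 31.7 (SD, n = 3), far above the others. Vav1 followed at 65.6 ± 5.65, then Syk at 39.3 ± 2.66 and Prkcd at 38.0 ± 2.87, Bcl10 at 29.9 ± 0.735 and Plcg2 at 29.0 ± 2.30, Card9 at 17.3 ± 2.67, Malt1 at 16.3 ± 1.79, Traf6 at 14.9 ± 0.538 and Map3k7 at 11.9 ± 0.831 (SD, n = 3 each). Neighbours whose libraries overlapped in that order were Syk and Prkcd, Bcl10 and Plcg2, Card9 and Malt1, and Malt1 and Traf6. In Pdcd1f/fLysMcre TAMs Malt1 was at 22.5 ± 0.946 (SD, n = 3), clear of Traf6 (17.4 ± 0.551) and Card9 (15.5 ± 2.05) below it and of Bcl10 (30.2 ± 1.33) above it. The place of Malt1 depends on the length used, because its merged exons span 18040 bases and its longest transcript 6404. By the longest transcript Malt1 stood 6th in Pdcd1f/f TAMs and 5th in Pdcd1f/fLysMcre TAMs.

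The genes whose levels followed Malt1 most closely over the 6 libraries were Mtmr10, Tpm1, Calcrl, Nol11 and Gabpa, with Pearson's r between 0.995 and 0.997 on log2 CPM. Their direction follows from that choice. Mtmr10, the closest, had a log2 fold change of 0.18 (adjusted p = 0.105 from edgeR) and Gabpa 0.19 (adjusted p = 0.103 from edgeR). Tpm1, an actin-binding tropomyosin, rose by a log2 fold change of 0.28 (adjusted p = 0.0334 from edgeR), Nol11, a nucleolar protein, by 0.28 (adjusted p = 0.0343 from edgeR) and Calcrl, the calcitonin receptor-like receptor, by 0.54 (adjusted p = 0.0108 from edgeR). Among the partners r was 0.97 for Traf6, which ranked 107th of 14468 genes, 0.80 for Map3k7, 0.33 for Plcg2, 0.06 for Bcl10, −0.06 for Fcer1g, −0.17 for Syk, −0.30 for Prkcd, −0.67 for Card9 and −0.89 for Vav1. These values describe 6 points that share the libraries' GC trend and the difference between the groups.

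Around these 10 genes, 92 further genes of the pathway were listed, of which 87 were tested. Compared with the controls, 13 rose and 4 fell, against 2.42% and 3.01% of all genes tested. The lists were drawn up with results of these libraries known, and several of the lectin receptor and cytokine genes were singled out by the study from the same samples, so the counts are not independent evidence. The split depended on the fit, as did the share of all genes tested that was called in either direction, given in parentheses. Without Pdcd1f/f replicate 1 it was 19 higher and 19 lower (21.6%). Without both libraries that stood apart in GC content it was 26 and 20 (26.2%). With DESeq2 it was 15 and 9 (12%), and with GC and length offsets 20 and 12 (18.2%). The number past the threshold depended on the libraries, with the share of all genes tested again in parentheses. It was 38 without Pdcd1f/f replicate 1 (21.6%), 5 without Pdcd1f/f replicate 2 (1.51%) and 7 without Pdcd1f/f replicate 3 (2.38%). Without Pdcd1f/fLysMcre replicates 1, 2 and 3 it was 6 (1.51%), 8 (2.5%) and 11 (3.56%). Without both libraries that stood apart in GC content it was 46 (26.2%). Clec4e, Lat, Ptpn22, Fcgr3 and Fcgr4 were past the threshold with each library left out in turn, and the other 12 in 1 to 5 of the 6 fits, with Clec4n, Oscar, Tyrobp, Il6, Il10 and Csf3 in only 1 of them.

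The receptors moved in opposite directions. Of 12 ITAM-coupled receptors and adaptors tested, 5 were higher and 4 lower, against 2.42% and 3.01% of all genes tested. Their median log2 fold change was 0.13. Clec4e, the receptor Mincle, had 11988, 10619.7 and 10439.8 normalized counts in Pdcd1f/f TAMs and 17317, 19561 and 16889 in Pdcd1f/fLysMcre TAMs. Its log2 fold change of 0.70 (adjusted p = 0.000806 from edgeR) exceeded that of Malt1. Clec5a, a receptor coupled to Dap10 and Dap12, rose by 0.52 (adjusted p = 0.00912 from edgeR), Clec7a, the β-glucan receptor Dectin-1, by 0.40 (adjusted p = 0.0235 from edgeR), Oscar, a collagen receptor, by 0.32 (adjusted p = 0.0492 from edgeR) and Clec4n, the mannan receptor Dectin-2, by 0.27 (adjusted p = 0.0413 from edgeR). Fcgr3, an activating Fc receptor, fell by 0.45 on the log2 scale (adjusted p = 0.00137 from edgeR), with 23928 to 24501 normalized counts in Pdcd1f/f TAMs against 17475 to 17797 with LysMcre. Fcgr4 fell by 0.39 (adjusted p = 0.00488 from edgeR), Trem2, a lipid receptor of macrophages, by 0.38 (adjusted p = 0.0302 from edgeR) and Tyrobp, the adaptor Dap12, by 0.33 (adjusted p = 0.0405 from edgeR). The macrophage markers given above moved the same way as these 4 genes, and the part of cell makeup in them was not tested. The call of Oscar was the least stable, past the threshold in 7 of 18 alternatives, and Tyrobp moved to −0.20 with GC and length offsets (adjusted p = 0.00249 from edgeR). Oscar, Clec4n and Tyrobp are named beyond the 6 smallest adjusted p of the list, after their values were seen.

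Of 19 proximal kinases and adaptors tested, Lat and Pik3r1 were higher and none was lower, against 2.42% and 3.01% of all genes tested. The median log2 fold change of this list was 0.05. With GC and length offsets 4 were called higher and 1 lower, against 18.2% of all genes tested. Fgr and Src were also higher and Pik3cd lower (−0.23, adjusted p = 0.000932 from edgeR), named after their values were seen. Lat, an adaptor best known from T cells, was low, with 109, 119.5 and 122 normalized counts across Pdcd1f/f replicates 1 to 3, against 222, 228 and 219 with LysMcre. Its log2 fold change was 0.94 (adjusted p = 0.00236 from edgeR), and of the T cell markers Cd2 had 19 to 40 counts per library, Lck 5 to 13, Cd3d, Cd3e and Cd3g no more than 11 and Cd8a no more than 2. The part of T cells in the values of Lat was not tested. Pik3r1, the regulatory subunit of PI3-kinase, rose by 0.34 (adjusted p = 0.0207 from edgeR). Of 12 brakes on ITAM signalling, Ptpn22, a phosphatase that acts on Src and Syk family kinases, was higher (0.60, adjusted p = 0.00709 from edgeR), with 4807 to 6029 normalized counts in Pdcd1f/f TAMs and 7299 to 9005 in Pdcd1f/fLysMcre TAMs. The other 11 brakes were not past the threshold, where 5.43% of all genes tested were past it. The median of the list was −0.11. With GC and length offsets Ptpn22 was called higher and 3 brakes lower, against 18.2% of all genes tested. These were Inpp5d, Dok2 and Sla, named after their values were seen. DESeq2 called 3 of the 12 brakes, against 12% of all genes in that fit.

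None of the 3 lists closest to Malt1 held a gene past the threshold in edgeR. Over all genes tested 5.43% were past it, and a count of 0 among 32 genes is read against that share. Of the genes in the 3 lists, 4, 3 and 0 had an unadjusted p under 0.05 in edgeR, for which no share of all genes is given. DESeq2 called 0, 1 and 0, against 12% of all genes in that fit. Among 9 CARD scaffolds, protein kinases C and Card9 regulators the smallest adjusted p was that of Prkch (log2 fold change 0.18, adjusted p = 0.0996 from edgeR). Among 15 ubiquitin and kinase steps below Malt1 it was that of Chuk, the kinase IKKα (0.24, adjusted p = 0.0732 from edgeR), and among 8 Malt1 protease substrates that of Cyld, a deubiquitinase (0.15, adjusted p = 0.254 from edgeR). The medians of the 3 lists were −0.02, 0.02 and 0.01. With GC and length offsets 5 of these 32 genes were called, near the 18.2% of all genes tested, Prkch, Chuk and Traf3 higher and Rubcn and Tnfaip3 lower, named after their values were seen.

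Among 12 cytokine and mediator genes that the chain is known to induce, 5 were higher and none was lower. This stands against 2.42% and 3.01% of all genes tested, and the median log2 fold change was 0.23. Il6 rose by 0.56 (adjusted p = 0.0403 from edgeR), Csf3, the gene for G-CSF, by 0.56 (adjusted p = 0.0245 from edgeR), Ptgs2, the prostaglandin synthase COX-2, by 0.38 (adjusted p = 0.00603 from edgeR), Il10 by 0.36 (adjusted p = 0.0311 from edgeR) and Il1b by 0.31 (adjusted p = 0.0128 from edgeR). With GC and length offsets Ptgs2 moved to 0.25 (adjusted p = 0.000992 from edgeR). Of the 6 fits that left out a single library, Ptgs2 was called in 4, Il1b in 3, and Il6, Il10 and Csf3 in only 1 each. Il1b was the most abundant of the 5, with 59043 to 61189 normalized counts in Pdcd1f/f TAMs against 72482 to 77129 with LysMcre. Il6 was low, with 149 to 193 and 236 to 278 normalized counts. Tnf and Nos2, named after their values were seen, lay lower without overlap between the groups (−0.20, 95% interval −0.33 to −0.06, adjusted p = 0.0859, and −0.21, adjusted p = 0.163, from edgeR), and Tnf was called lower with GC and length offsets (−0.14, adjusted p = 0.0172 in edgeR).

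**Figure D5:**
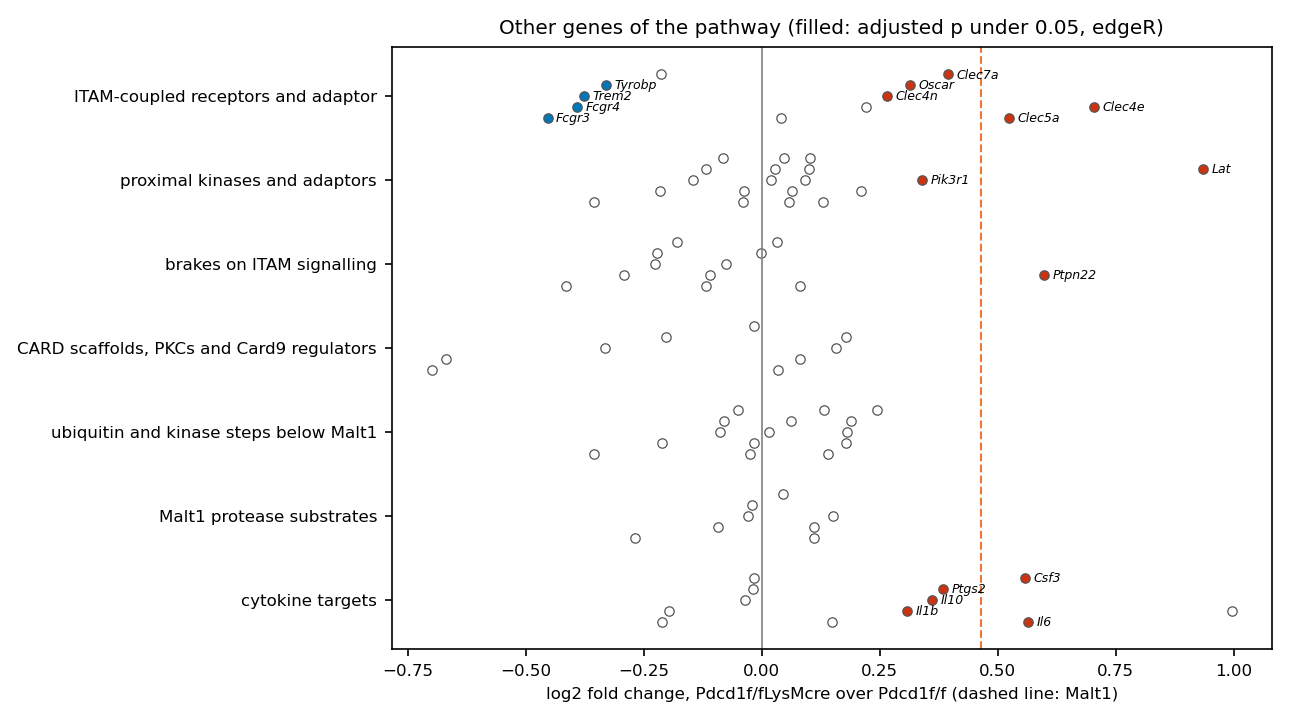
Log2 fold change (x axis, Pdcd1f/fLysMcre over Pdcd1f/f) of the 87 tested genes in 7 lists around the 10 genes (rows), with genes at an adjusted p under 0.05 in edgeR filled and named (red higher, blue lower) and the value of Malt1 as a dashed line. Filled genes lie among receptors, proximal adaptors, brakes and cytokine targets, and none of the 32 genes in the 3 lists next to Malt1, where 5.43% of all genes tested were called.

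Read sharing with neighbouring genes was small for the 10 genes. Card9, Plcg2 and Map3k7 overlap annotated genes on the other strand, and the strand setting of the counting is not given in the sources used here. Gm13562, which overlaps Card9, had 5 counts in all 6 libraries together against 10599 for Card9, and Gm27361 (over Plcg2), Gm11926 and Gm26254 (over Map3k7) had 0.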

How the data were processed

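RNA was sequenced as stranded, polyA-selected paired-end libraries. The authors trimmed reads with Cutadapt 2.5, aligned them with STAR 2.7.3a to GRCm38 and deposited raw read counts per Ensembl gene from featureCounts (Subread 1.6.2); strand setting and handling of multi-mapped reads are not given in the sources used here. A second deposited table holds a normalized signal, for which the authors divided each count by 1 DESeq2 size factor per library (DESeq2 1.24.0).

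Counts were tested in R 4.3.3 with edgeR 4.0.16 (quasi-likelihood, robust, TMM scaling, a count minimum of 10 with a total of 15, Benjamini-Hochberg adjustment at 0.05). The GC content and length of the longest transcript came from GENCODE M21. The offsets were loess fits (span 0.5) to each library. Differences from Malt1 used limma 3.58.1 on log2 CPM (prior count 2) with exact permutations over 20 splits. The labels do not say that libraries came from separate mice, and every library held both Xist and Y-linked transcripts. Whether mice were pooled was not tested. The p-values therefore measure the spread between these libraries, which may be technical. Members and lists were chosen with earlier results of these data known. The genes named were the 10 members, up to 6 pathway genes past the threshold per list (in a list with none, the gene of smallest adjusted p) and the 5 genes most like Malt1. DESeq2 1.42.0, limma, other scalings and filters, a replicate block and left-out libraries were tried, and the fits were tested on simulated data.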

Additional observations from a re-analysis of the deposited data

How the results depend on the processing

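The count of genes called among all tested (786) was 1951 with all genes of at least 1 count, 1517 with DESeq2, 2627 with GC and length offsets, 2702 with these offsets and the replicate block, 2497 with offsets from GC alone, 3757 without both libraries that stood apart, 283 at a threshold of 0.01, and 222 to 3181 with 1 library left out. Of the 10 signalling genes (1 called), 2 were called with DESeq2, 3 with GC and length offsets with or without the block, 3 without both libraries, 4 with GC alone and 0 to 3 with 1 library left out. Of the other pathway genes (17 called), 27 were called with all genes of at least 1 count, 32 with GC and length offsets with or without the block, 31 with GC alone, 46 without both libraries, 7 at 0.01 and 5 to 38 with 1 library left out. The 9 differences from Malt1 called fell to 3 at the lowest with 1 library left out and were 9 at the highest. Offsets from GC alone, and the differences from Malt1 without both libraries, were chosen after seeing the data. The cause of these shifts was not tested.

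The log2 fold change of Malt1 lay between 0.40 and 0.55 with 1 library left out. Estimates near 0 changed sign. Syk ranged from −0.040 to 0.071 with 1 library left out, Bcl10 from −0.016 to 0.048 and Prkcd from −0.061 to 0.044. Bcl10 was −0.0019 and Prkcd −0.0100 with library size alone, and without both libraries they were −0.034 and −0.025. Fcer1g was 0.044 with GC and length offsets, 0.044 with the block added and 0.012 with GC alone. No scaling moved the median of all genes by more than 0.1.

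With the replicate block 1027 genes were called, including 1 of the 10 signalling genes, as without it, and 19 other pathway genes. Same-numbered libraries deviated with correlations of −0.01, −0.10 and 0.22, so the numbers were not taken as pairs. Among the recomputed fold changes and differences 484 kept their direction and side of the threshold, 85 kept their direction but were no longer past it, 12 came to pass it and 13 changed sign.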

Other observations

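The macrophage list was led by abundant genes, and 3 of its 6 members were lower in Pdcd1f/fLysMcre TAMs, against 3.01% of all genes tested. By log2 fold change in edgeR these were Mertk (−0.61), Adgre1 (−0.38) and Csf1r (−0.32). Mertk encodes a receptor for the uptake of dying cells, Adgre1 encodes F4/80 and Csf1r the receptor for M-CSF. Summed normalized counts of T cell markers (Cd2 the most abundant, by counts as for each gene in parentheses) were 41.7 to 43.8 in Pdcd1f/f and 34.4 to 45.7 in Pdcd1f/fLysMcre libraries, and those of NK cells (Gzma) 17.6 to 35.8 and 13.8 to 26.7. B cell markers (Cd79b) summed to 168 to 209 and to 118 to 147, and mast cell markers (Kit) to 191 to 197 and to 170.2 to 272. Dendritic cell markers (Ccr7) summed to 217 to 297 and to 279 to 359, with none of the 3 tested past the threshold. Ccr7 stood at 0.033, while Flt3 (0.67, groups not overlapping, adjusted p = 0.137 from edgeR) and Zbtb46 (0.69, adjusted p = 0.120 from edgeR) had higher estimates. Endothelial markers (Kdr) summed to 849 to 886 and to 848 to 895. Among the 5 neutrophil markers tested Csf3r, the most abundant by normalized counts not set against length, was lower (−0.51), while S100a8 (0.23), S100a9 (0.12) and Cxcr2 (0.030) had positive and Retnlg (−0.95) negative estimates that were not past the threshold, and S100a8 was called higher with GC and length offsets (adjusted p = 0.0273 from edgeR). Among fibroblast or fibrosarcoma markers Col1a2 was lower (−1.0) with sums of 3131 to 3354 and 2885 to 3297 led by Dcn. Among the platelet markers only Pf4 and Ppbp were abundant, while Itga2b had 13 to 27 counts per library and Gp9 no more than 1. The platelet markers summed to 40096 to 41673 and to 39527 to 42163, mostly from Pf4. Of the 3 tested, Ppbp was higher (0.83), while Pf4 lay lower without overlap (−0.14) and Itga2b stood at −0.42, neither past the threshold. The part of these cells in the values of the 10 signalling genes was not tested.

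Il23a, a cytokine target chosen here after its values were seen, had a log2 fold change of 0.996 without passing the threshold (adjusted p = 0.0699 from edgeR), and passed it with GC and length offsets (1.04, adjusted p = 0.0290 from edgeR).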
